A study of Mus musculus with 10 samples.

Results

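The sites described here are the HEB summits on mouse chromosomes 5 and 15, taken as every summit on either chromosome except those on chromosome 5 from 15 to 16 Mb. There are 422 of them among the 2049 summits of the series: 326 of the 1489 summits in the list from Id4 knockdown cells (siID4) and 96 of the 560 in the list from control cells (siNT). Chromosome 5 held 191 siID4 and 56 siNT summits, and chromosome 15 held 135 and 40. The segment of chromosome 5 that is left out held a further 18 and 13.

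Both lists come from Comma-Dβ, an established line of mouse mammary epithelial cells, used at passage 28. Control cells were transfected with 20 nM of a non-targeting siRNA pool and knockdown cells with 20 nM of a pool against mouse Id4, and both were collected 48 h later. HEB was immunoprecipitated from 3 libraries of each siRNA, and 4 input libraries, listed with no siRNA dose, are labelled for use with both siRNAs. Chromatin immunoprecipitation with sequencing (ChIP-seq) recovers DNA bound by a protein, and a summit is the single base at the top of a stretch of enriched reads.

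HEB, encoded by Tcf12, is an E-protein, a helix-loop-helix factor that binds DNA as a dimer at E-boxes, the 6-base sites written CANNTG. ID4 has the helix-loop-helix but no DNA-binding region, so a dimer of an ID protein with an E-protein does not bind E-boxes. In the mammary gland ID4 is known as a regulator of basal cells and their progenitors.

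Each siRNA has a single deposited list and no value per library, so nothing below has an error between replicates, and no comparison of the siRNAs is tested. The score is the authors' own, read as −log10 of a q value, and ranks summits only within its list. Summit lists carry no RNA levels, so neither cell identity nor loss of Id4 could be checked from them. Intervals are exact binomial (Clopper-Pearson) 95% intervals and cover counting error only. The summits were chosen by their measured positions, on chromosomes picked for holding many of them, so their counts are a description. Positions are in mm10, counted from 1.

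A RefSeq promoter window on these chromosomes held summits of both lists, and its sequence is shown because both summits fell within it. It belongs to Pcolce, whose product enhances the processing of procollagens. RefSeq's window for this start in GRCm38.p6, the assembly behind mm10, runs from 250 bases before to 50 bases after it, at chr5:137611355-137611654 on the minus strand. Each CANNTG is in capitals, and the sequence reads 5′ to 3′.
Pcolce: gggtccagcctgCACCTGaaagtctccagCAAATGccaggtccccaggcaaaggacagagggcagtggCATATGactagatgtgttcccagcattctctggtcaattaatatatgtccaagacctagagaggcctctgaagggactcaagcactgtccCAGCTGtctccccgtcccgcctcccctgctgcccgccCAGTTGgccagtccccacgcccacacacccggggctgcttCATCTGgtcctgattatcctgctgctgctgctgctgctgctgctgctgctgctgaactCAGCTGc

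The siID4 summit at position 137611401 fell on base 254 of this window, just past the start. The siNT summit at position 137611369 fell on base 286. The annotated gene, from 137605105 to 137611522, reaches beyond this start, so both summits lay inside it, 121 and 153 bp from its end. The window holds 7 CANNTG sites, none overlapping another. The siID4 summit lay 15.5 bp from the centre of the CATCTG at bases 236 to 241. The siNT summit lay 10.5 bp from the centre of the CAGCTG at bases 294 to 299. CANNTG reads the same on both strands as a pattern, and 72.3% of all 32851 RefSeq promoter windows hold at least 1. Only 0.177% hold 7 or more, a number taken from Pcolce itself. CAGCTG, the same word on both strands, occurs at 2 places here and at 2 or more in 1.90% of windows; 16.3% have it at least once. CACCTG or its reverse complement CAGGTG occurs at 1 place and in 20.2% of windows. These matches describe letters, not bound sites. Across the assembled chromosomes 0.717% of siID4 and 1.86% of siNT summits lay in any such window, 10 and 9 summits.

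Chromosome 5 carried summits along nearly its whole length. In 31 bins of 5 Mb the siID4 list left 1 bin empty and averaged 6.16 summits per bin, with at most 16. The siNT list left 5 empty and averaged 1.81, with at most 8. The fullest bin was the same in both lists, from 110 to 115 Mb, with 16 siID4 and 8 siNT summits. It holds the highest site of the chromosome and those at Wscd2 and Tmem119. The next fullest siID4 bin, from 35 to 40 Mb, held 14 siID4 but only 2 siNT summits, and none of either was shared. From 30 to 35 Mb the counts were 8 siID4 and 6 siNT, and from 145 to 150 Mb 11 and 5.

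A bin was called crowded when its density was at least 2 times the chromosome's mean, and 2 or more crowded bins in a row were called a segment. Chromosome 5 had 2 crowded siID4 bins and 4 crowded siNT bins, none next to another, so it had no segment in either list. The siNT bins rest on 3 to 8 summits each. The variance of counts per bin was 2.87 times their mean for siID4 and 1.75 times for siNT; a ratio of 1 would be an independent scatter at an even rate. With the left-out segment from 15 to 16 Mb kept, the siNT ratio was 4.33, above the 2.62 of chromosome 15. The 3 fullest bins held 22.0% of the siID4 summits and 33.9% of the siNT summits.

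Chromosome 15 was segmental in the siID4 list, and in both lists the share held by its fullest block fell at higher score limits. Of its 135 siID4 summits, 101 lay between 25 and 65 Mb, which is 74.8% of them (66.6 to 81.9) on 38.5% of the length. Of its 40 siNT summits, 24 lay there, or 60% (43.3 to 75.1). Among siNT summits at or above the list's median score the block held 44.4% (21.5 to 69.2). At a score of at least 5 it held 42.1% (20.3 to 66.5), and both are near its share of the length. For siID4 the shares at these limits were 66.1% (52.2 to 78.2) and 63.8% (48.5 to 77.3). The density in this block was 2.53 siID4 summits per Mb against 0.532 in the rest of the chromosome, and 0.600 siNT summits per Mb against 0.250. The block is the fullest 40 Mb window of the chromosome in both lists, and it was chosen after the summits were seen.

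Within the block the crowding came in patches. By the crowding rule the siID4 list had segments from 30 to 40 Mb, with 33 summits, and from 55 to 65 Mb, with 40. The siNT list had 1 segment, from 50 to 65 Mb, with 15 summits. Between the siID4 patches, the bins from 40 to 50 Mb held 7 siID4 summits and no siNT summit. The fullest bin for siID4 was from 55 to 60 Mb, with 25 siID4 and 4 siNT summits. In siNT the fullest bins were from 60 to 65 Mb and from 75 to 80 Mb, with 7 summits each; these bins held 15 and 8 siID4 summits. The first 5 Mb of the chromosome was empty in both lists. From 80 to 95 Mb there were 5 siID4 summits and none from siNT. The variance of counts per bin was 7.30 times the mean for siID4 and 2.62 times for siNT, and the 3 fullest bins held 43.0% and 45.0% of the summits.

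**Figure D1:**
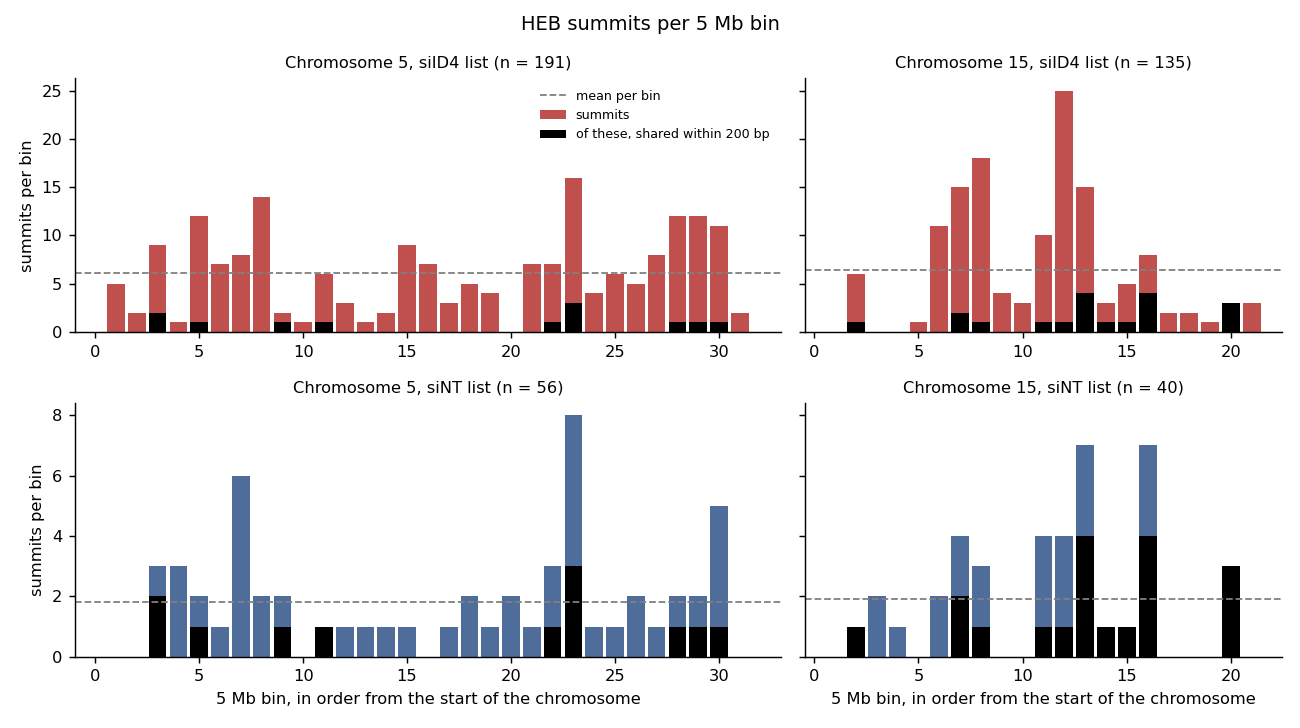
Summits per 5 Mb bin on chromosome 5 (left) and chromosome 15 (right) for the siID4 list (top) and the siNT list (bottom), with the part shared within 200 bp in black and the mean per bin dashed; the vertical scales of the lists differ. Chromosome 5 has 1 empty siID4 bin of 31, while on chromosome 15 the siID4 bars stand highest in bins 6 to 8 and 11 to 13, with a peak of 25 summits.

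**Figure D2:**
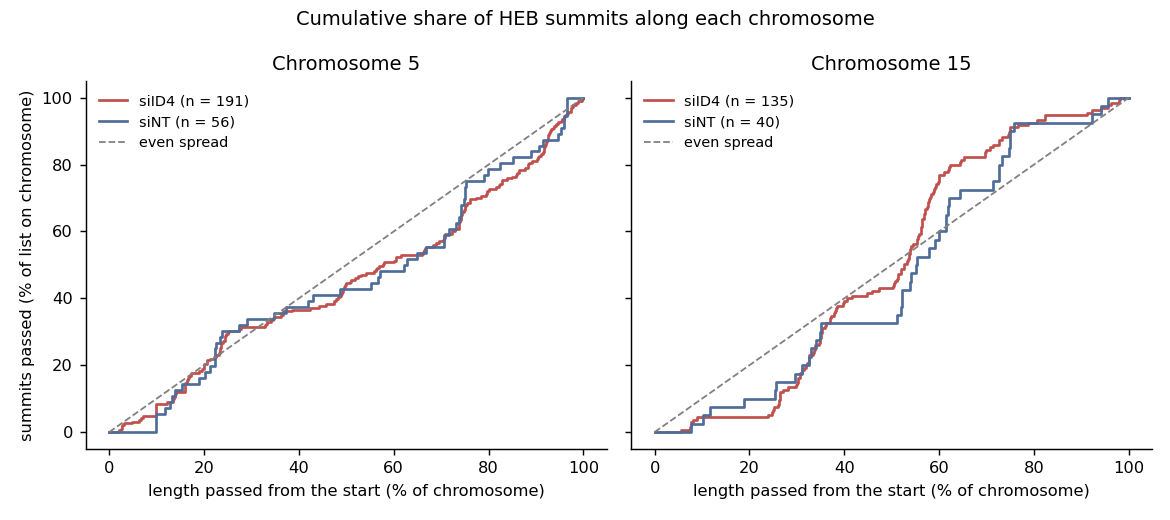
Share of each list's summits passed (vertical axis, percent) against the length of the chromosome passed from its start (horizontal axis, percent), with an even spread dashed. On chromosome 5 the stretch from 110 to 150 Mb holds 38.7% of siID4 and 39.3% of siNT summits on 26.5% of the length used. The chromosome 15 siID4 curve climbs through 74.8% of its summits over 38.5% of the length.

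Other chromosomes give these values a scale. Among the 14 other chromosomes with at least 20 siID4 summits, the variance-to-mean ratio ran from 1.10 to 92.5 with a median of 3.63, and the highest was chromosome 11. Of these, 3 lay above chromosome 15 and 7 above chromosome 5. At the same relative unevenness this ratio rises with the number of summits. That number ran from 24 to 373 on the chromosomes compared, and the ratio was not adjusted for it. The fullest 40 Mb held 1.94 times its share of the length on chromosome 15 and 1.46 times on chromosome 5, against a median of 1.85 (1.24 to 3.13) elsewhere. By that measure 6 of the 14 were more concentrated than chromosome 15 and 13 more than chromosome 5. In the siNT list, where 8 other chromosomes had 20 summits, 5 had a higher variance-to-mean ratio than chromosome 15, and 5 than chromosome 5. Concentration in blocks was therefore not peculiar to chromosome 15. The differences between chromosomes were not tested.

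Few summits had a neighbour within kilobases, with local exceptions on chromosome 5. Only 6 of the 135 chromosome 15 siID4 summits had another siID4 summit within 10000 bp, or 4.44%, below all 14 chromosomes compared (5.13% to 49.3%, median 28.5%). On chromosome 5 the number was 17 of 191, or 8.90%, and 11 of the 14 were higher. The exceptions included the siID4 summits from 14954354 to 14990805, before the left-out segment, and 3 from 111880401 to 111890922, at the highest site. The median gap between neighbouring siID4 summits was 239901 bp on chromosome 15 and 402644 bp on chromosome 5. Equal spacing would give 769625 and 789007 bp, and an independent scatter at an even rate would also give a median gap below these values. No test was made of these differences.

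The crowded block of chromosome 15 was poor in genes. It holds 144 protein-coding genes, or 3.60 per Mb, against 9.89 per Mb in the rest of the chromosome. Bins rich in genes there varied. From 75 to 80 Mb, the bin with most genes (158), there were 8 siID4 summits, 1.23 times the mean density, and 7 siNT summits, 3.64 times. From 100 Mb to the end, with the keratin genes, 104 genes came with 3 siID4 and no siNT summits. Over the 21 bins, gene and siID4 summit numbers had a Pearson r of -0.03 and a Spearman rho of 0.20. The values for siNT were 0.27 and 0.14. On chromosome 5 summits and genes rose together over 31 bins, with r = 0.56 and rho = 0.60 for siID4 and 0.45 and 0.49 for siNT. These correlations are descriptions: bins of a chromosome share its libraries, and base composition and the reads of the inputs were not analysed here.

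**Figure D3:**
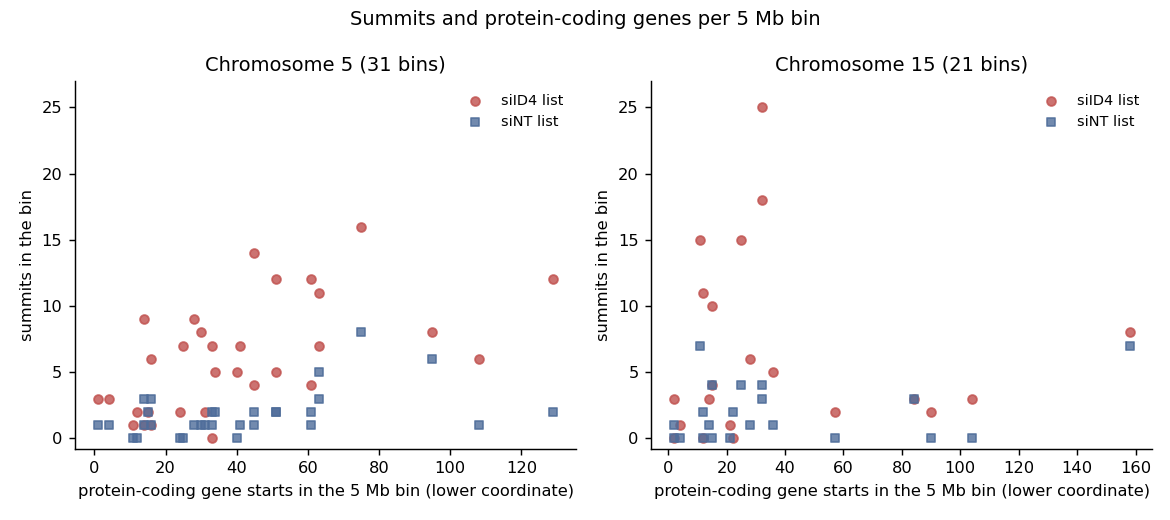
Summits per 5 Mb bin (vertical) against protein-coding genes whose lower coordinate falls in the bin (horizontal) for both lists. On chromosome 5 the bins with most genes tend to hold more summits, while on chromosome 15 the fullest siID4 bin, with 25 summits, has 32 genes and the bin with 158 genes has 8.

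Fewer summits lay at gene ends on chromosome 15 than on chromosome 5. On chromosome 5, 25 of 191 siID4 summits, or 13.1% (8.65 to 18.7), lay within 1000 bp of either end of an annotated gene of any kind. On chromosome 15 the number was 4 of 135, or 2.96% (0.813 to 7.41). The background over all assembled chromosomes was 9.47%. In the siNT list the shares were 10.7% (4.03 to 21.9; 6 summits) on chromosome 5 and 5.00% (0.611 to 16.9; 2 summits) on chromosome 15, with a background of 12.0%. For protein-coding genes alone, 0 chromosome 15 summits of either list lay that close to a gene end. A further 41.4% of the chromosome 5 siID4 summits and 43.7% of those on chromosome 15 lay inside genes. Outside genes were 45.5% and 53.3%. The intervals of the siID4 shares near gene ends do not overlap between the chromosomes, and those of the siNT shares do; summits are not replicates, so no p is given.

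Within 100000 bp of a protein-coding gene lay 84.3% of chromosome 5 and 74.8% of chromosome 15 siID4 summits, against 84.0% over the assembled chromosomes. The siNT shares were 85.7% and 80.0%, against 88.4%. A link here is the nearest protein-coding gene body within that distance and shows nearness only. On chromosome 5 the siID4 summits were linked to 127 genes and the siNT summits to 42, with 17 genes in both. On chromosome 15 the numbers were 76, 29 and 18. The overlap of linked genes was not counted for the other chromosomes, so these numbers have no background beside them.

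The median summit of both chromosomes stood below the middle of its list, with intervals wholly below percentile 50 only on chromosome 5. The median siID4 summit stood at percentile 36.6 on chromosome 5 (interval of the median 32.3 to 39.8) and 42.1 on chromosome 15 (34.7 to 51.2). The median siNT summit stood at 30.7 (23.3 to 42.1) and 33.1 (26.0 to 57.9). In the rest of the assembled chromosomes the medians were 51.2 and 50.7. On chromosome 5 only 16 of 191 siID4 summits, or 8.38% (4.86 to 13.2), reached the list's highest quartile, which holds 25.0% by construction. On chromosome 15 the number was 30 of 135, or 22.2% (15.5 to 30.2). In siNT, 4 of 56 and 9 of 40 reached it, or 7.14% and 22.5%, against the same 25.0%. The scores ran from 1.32 to 80.3 on chromosome 5 and from 1.32 to 67.9 on chromosome 15 in siID4. In siNT they ran from 1.33 to 49.7 and from 1.65 to 48.1. Chromosome 5 thus had few summits in the highest quartile. The chromosome 15 shares were near the 25.0% of the whole list, and its median intervals include percentile 50 in both lists.

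**Figure D4:**
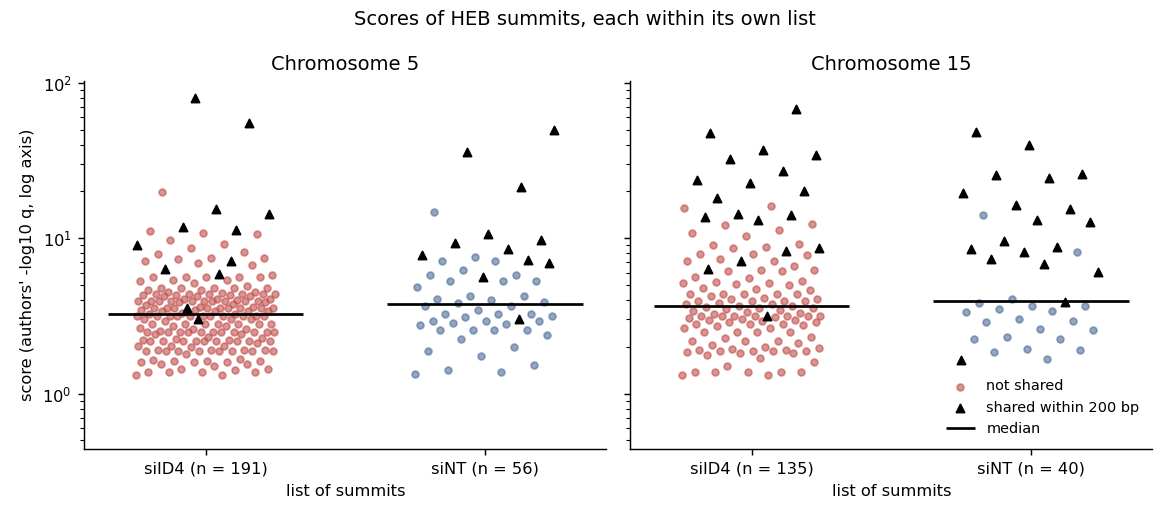
Scores of all 422 summits on a log axis by chromosome and list, with shared summits as black triangles and the median as a bar; scores are not comparable between lists. The highest point of each column is a shared summit, at 80.3 for siID4 on chromosome 5 and 67.9 on chromosome 15, and some shared summits sit low, down to 1.65 in siNT on chromosome 15.

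A summit was shared when the other list had a summit within 200 bp. On chromosome 5, 12 pairs were shared, which is 6.28% of its siID4 summits (3.29 to 10.7) and 21.4% of its siNT summits (11.6 to 34.4). On chromosome 15, 19 pairs were shared, 14.1% of the siID4 (8.69 to 21.1) and 47.5% of the siNT summits (31.5 to 63.9). The background over all summits was 19.5% for siID4 and 51.8% for siNT. Both lists were called with the same inputs available, so sharing is not agreement between independent experiments. More than 1000 bp from any summit of the other list were 179 of the 191 siID4 summits of chromosome 5 and 116 of the 135 of chromosome 15, against a background of 77.0%. In siNT these were 43 of 56 and 21 of 40, against 40.7%.

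Sharing followed the score, on these chromosomes as in the rest of the lists. Of the 101 siID4 summits on these chromosomes in the list's lowest quartile, 0 were shared, against 3.05% in the rest of the assembled chromosomes. Of the 46 in the highest quartile, 23 were, or 50% (34.9 to 65.1), against 55.6% (49.3 to 61.8) in the rest of the assembled chromosomes. In siNT 11 of 13 in the highest quartile were shared, or 84.6%, and 2 of 36 in the lowest, or 5.56%. The siNT shares in the rest were 91.5% and 13.5%. Had each quartile been shared at the rate of the rest, chromosome 5 would have 18.6 shared siID4 summits instead of 12, and chromosome 15 22.8 instead of 19. The same sum for siNT gives 20.02 instead of 12 on chromosome 5 and 18.9 instead of 19 on chromosome 15. These differences were not tested.

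**Figure D5:**
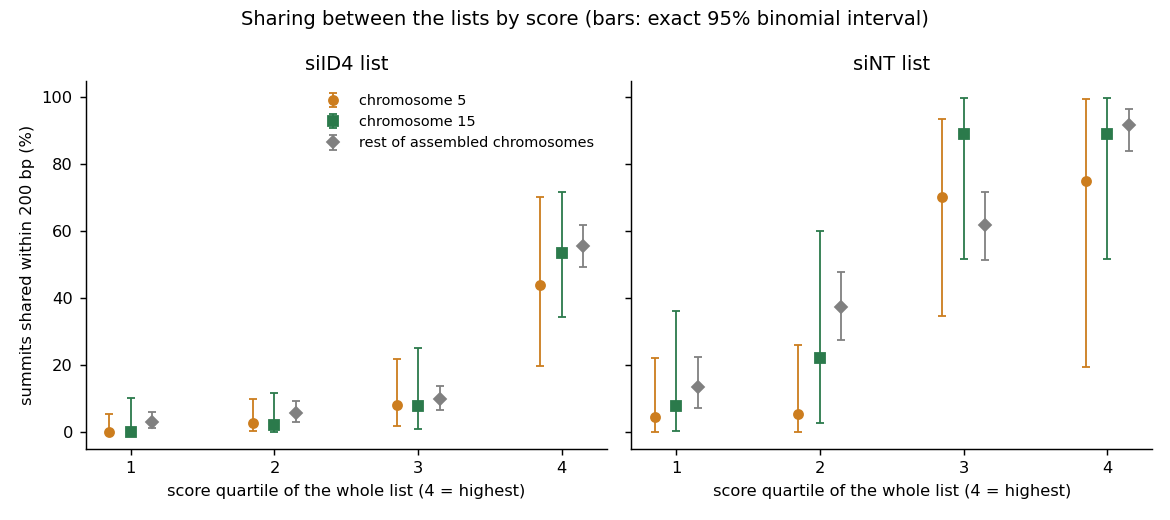
Share of summits with a summit of the other list within 200 bp (vertical, percent, with exact 95% binomial intervals) by score quartile of the whole list, for chromosome 5, chromosome 15 and the rest of the assembled chromosomes. Sharing is highest in quartile 4 for siID4, at 43.8%, 53.3% and 55.6%, and the intervals overlap within each siID4 quartile; in siNT quartile 2 the chromosome 5 interval (0.133 to 26.0) lies below that of the rest (27.5 to 47.8).

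A smaller share of summits was shared inside the block of chromosome 15 than outside it, with intervals that overlap. Inside it 9 of 101 siID4 summits were shared, or 8.91% (4.16 to 16.2), and outside it 10 of 34, or 29.4% (15.1 to 47.5). In siNT the numbers were 9 of 24 and 10 of 16, or 37.5% (18.8 to 59.4) and 62.5% (35.4 to 84.8). The median percentile was 39.8 inside (34.7 to 46.6) and 57.1 outside (34.7 to 83.0) for siID4. For siNT it was 26.9 (14.4 to 57.1) and 59.1 (32.1 to 79.2), and in both lists these intervals overlap. The bin with 25 siID4 summits had 1 shared summit, while all 3 summits from 95 to 100 Mb were shared in both lists.

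The shared pairs lay close together. Over both chromosomes the 31 pairs were a median of 21 bp apart and at most 157 bp, and 24 lay within 50 bp. At Ano6 and near Gsap both lists had their summit on the same base. The median percentile of shared siID4 summits was 81.2 on chromosome 5 and 91.6 on chromosome 15, and of those without a partner 34.7 and 37.1.

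All of the 10 highest siID4 sites of chromosome 15 were shared, and 9 of its 10 highest siNT sites. On chromosome 5 these numbers were 6 and 8. The sets of 10 reached down to unlike ranks, 125 in siID4 and 147 in siNT on chromosome 15, and 257 and 260 on chromosome 5. In the highest quartile of the whole list, 57.8% of siID4 and 90% of siNT summits were shared. Sharing at the same ranks on other chromosomes was not counted. Among the 10 highest siID4 sites, the lowest score was 10.7 on chromosome 5 and 18.1 on chromosome 15.

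On chromosome 5 a pair of sites stood far above the rest. The highest, at position 111890922, scored 80.3 in siID4 (rank 21 of 1489), with an siNT summit 21 bp away scoring 49.7 (rank 27 of 560). It lay 2293 bp from the long noncoding RNA gene Gm29935 and 355570 bp from the nearest protein-coding gene. The Pcolce promoter followed, with 55.6 in siID4 (rank 31) and 35.9 in siNT (rank 35). The next siID4 score on the chromosome was 19.8, so the gap after these sites was wider than the range of all the others.

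That next site lay 10849 bp from Hopx, which encodes a small homeodomain protein without DNA binding of its own, at position 77076137 (rank 116). It had no siNT partner, and the nearest siNT summit was 3194113 bp away. Another lay at an end of Tmem119, a membrane protein gene known from osteoblasts and microglia: the siID4 summit was 38 bp outside it (score 15.5) and the siNT summit 8 bp inside (9.75). The gene table gives no strand, so it does not say whether this end is the start of Tmem119. A summit 31322 bp from Gsap, which encodes a protein that modulates gamma-secretase, scored 14.3 and 10.7 on the same base of both lists. Inside Wscd2 the summits lay 1 bp apart with 11.9 and 9.36.

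The rest of the 10 highest siID4 sites included 2 beside the left-out segment. A summit 17827 bp from Gm10354 scored 11.2 in siID4 and 21.3 in siNT, where only the first pair of sites scored higher on the chromosome, and a summit inside Speer4e scored 11.1 with no siNT summit within 1000 bp. Both are close to Speer genes, a family of near-identical copies, so their reads may not be placed with certainty. The others lay at position 111881853, 9090 bp from the highest siNT site (score 10.8), and 19788 bp from Prkag2, an AMPK subunit gene (10.7). Neither of these had an siNT partner.

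In the siNT list, the highest chromosome 5 site without a siID4 partner lay at position 73882024 with a score of 14.7 (rank 130), 116702 bp from a protein-coding gene and 99064 bp from any siID4 summit. Summits inside Cyth3, an exchange factor for ARF GTPases, were shared, with 8.57 in siNT and 7.09 in siID4. Near Tgfbr3, the TGF-beta co-receptor betaglycan, a shared site 19114 bp away scored 7.74 in siNT and 6.35 in siID4. A second siNT summit inside Tgfbr3 scored 7.15 without a partner.

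On chromosome 15 the highest site in both lists lay inside Sema5a, an axon guidance semaphorin gene. The siID4 summit at position 32328900 scored 67.9 (rank 25) and the siNT summit 17 bp away 48.1 (rank 30). Asap1, an ARF GTPase-activating protein gene that acts at focal adhesions, had 2 shared sites. Inside the gene, at position 64377201, the scores were 47.7 in siID4 and 39.98 in siNT (ranks 35 and 33). At 87971 bp from it, position 64470912, they were 32.6 and 8.15, ranks 56 and 241. Within their lists the first Asap1 site stood at percentile 97.7 in siID4 and 94.2 in siNT, and the second at 96.3 and 57.1. Ranks are counted in lists of different length and show no change between the siRNAs.

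The site 33509 bp from Ano6, a phospholipid scramblase gene, scored 37.0 in siID4 and 25.4 in siNT. Inside Wdr70 the scores were 34.4 and 24.4. A site at position 33924262, with no protein-coding gene within 100000 bp, scored 27.1 in siID4 and 8.53 in siNT. Another at position 60149418, inside the long noncoding RNA gene Gm41331, scored 18.1 in siID4 (percentile 91.6) and 25.8 in siNT (percentile 88.5).

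The remaining high sites of chromosome 15 lay at named genes, all beyond the block except the one near Ext1. A site 20350 bp from Ly6h, of the Ly6 family of membrane-anchored proteins, scored 23.6 and 15.4. Plec, which encodes the cytoskeletal linker plectin, contained a pair with 22.8 and 19.6. Hdac7, a class IIa histone deacetylase gene, contained one with 20.04 and 16.3. In siNT the list of 10 was completed by a summit 9596 bp from Cdc42ep1, a CDC42 effector gene (score 14.1, not shared), and a pair 4412 bp from Ext1, a heparan sulfate polymerase gene (13.1 in siNT, 8.65 in siID4).

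The highest chromosome 15 siID4 sites without an siNT summit within 1000 bp ranked below the 10 highest sites, which were all shared. They lay 84899 bp from Ank, a pyrophosphate transport gene (score 16.1, rank 146), inside Pvt1 at 89274 bp from Myc (15.7, rank 151), and inside St3gal1, a sialyltransferase gene (12.4, rank 217). The siNT counterparts, beside Cdc42ep1, were a summit 35109 bp from Txn2, a mitochondrial thioredoxin gene (8.13), and one at position 19515267 far from genes (4.05). The siNT summit near Txn2 lay 8474 bp from a siID4 summit, which was itself paired with another siNT summit.

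At the other end of the scale, shared pairs included low-scoring sites. The pair inside Fmnl3, a formin gene, scored 3.16 in siID4 and 3.89 in siNT. The pair near Sepsecs, a gene of selenocysteine synthesis, scored 3.03 and 5.61. At 90473 bp from Slc22a22 the siID4 summit scored 14.1 and its siNT partner, 157 bp away, 1.65, the lowest siNT score of the chromosome.

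In the fullest bins, most genes had few summits each. In the chromosome 5 bin with 14 siID4 summits, Cpz, Sh3tc1 and Jakmip1 had 2 each, the highest of them 4.64 at Sh3tc1, and none was shared. In the siNT bin from 110 to 115 Mb, Tmem119 had the pair described above and a second summit scoring 1.74. From 145 to 150 Mb, the cytochrome P450 gene Cyp3a41b had 2 siNT summits, scoring 2.79 and 2.38. In the fullest siNT bins of chromosome 15, Asap1 and Txn2 had 2 summits each, and both of those at Asap1 were shared.

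Genes with several summits were nearly all siID4 genes, and the scores of these summits varied. In siID4, 12 genes had 3 or more linked summits, and in siNT only Gm10354, with 3. The siID4 list holds 326 of the summits described here and the siNT list 96, and these gene counts were not scaled to list size. Sntb1, a syntrophin gene in the fullest bin of chromosome 15, had 4 siID4 summits scoring 3.47 to 7.16, none shared, and 1 siNT summit. Rims2, a synaptic vesicle gene, Fer1l6 and Myo18b, an unconventional myosin gene, each contained 3 siID4 summits and had none in siNT; the highest of these 9 scored 4.34. Ank, Ext1, Gsap, Mad1l1, a spindle checkpoint gene, Nupl2, Pdgfa and Sdk1 also had 3 each. The highest siID4 summit scored 16.1 at Ank, 14.3 at Gsap, 11.2 at Gm10354 and 8.65 at Ext1, all in the list's highest quartile. Gm10354 had 5 siID4 and 3 siNT summits, 2 of them shared; it lies at 14974144 to 14978955, just before the left-out segment.

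The genes of the study's field on these chromosomes were examined by lists. Over all 10 lists, 31 of 163 genes were linked in siID4 and 12 in siNT, or 19.0% and 7.36%; over all 2045 protein-coding genes of both chromosomes the shares were 9.93% and 3.47%. Gene length was not taken into account, the lists were drawn up with earlier results of these data known, and no test was made. None of the 6 genes on the helix-loop-helix list (Clock, Mlxipl, Scx, Srebf2, Mxd4 and Mafk, the last a leucine zipper gene) was linked for either siRNA.

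Of 22 keratin genes, all on chromosome 15, 2 were linked in siID4 and 0 in siNT. The siID4 share, 9.09%, was near the 9.93% over all protein-coding genes of both chromosomes. Krt8, a keratin of luminal cells, had a summit 1175 bp away at position 102005517 (score 12.2, rank 220), and Krt6b one 13381 bp away (2.71). The basal keratin genes Krt5 and Krt6a were not linked, and neither were the luminal keratin genes Krt18 and Krt7. Csn2, Csn3 and Areg, also taken as luminal genes, were not linked either. The nearest siNT summit to the Krt8 site was 2661934 bp away.

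Of 19 matrix genes, 3 were linked in siID4 and 2 in siNT, or 15.8% and 10.5% (9.93% and 3.47% over all genes). Pcolce was in both. Col14a1, a collagen gene of fibroblasts, contained 2 siID4 summits (6.23 and 3.62), and Has2, a hyaluronan synthase gene, had one 19588 bp away (1.92). Tnfrsf11b, which encodes the decoy receptor osteoprotegerin, had an siNT summit (1.85).

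Of 20 Wnt, TGF-beta and growth signalling genes, 5 were linked in siID4 and 1, Tgfbr3, in siNT. These shares were 25% and 5%, against 9.93% and 3.47% over all genes. The Wnt ligand gene Wnt7b had siID4 summits scoring 10.8 and 1.60, the Wnt receptor genes Fzd9 and Fzd1 summits scoring 5.66 and 1.90, and the growth factor gene Pdgfa 3 summits between 4.24 and 4.77. Of these sites only the one near Tgfbr3 was shared.

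Of 27 adhesion and actin genes, 5 were linked in siID4 and 3 in siNT, or 18.5% and 11.1% (9.93% and 3.47% over all genes). Sema5a had the top site described above and a second siID4 summit scoring 3.93. Myo10, a filopodial myosin gene, scored 8.82, Pxn, the gene of the focal adhesion protein paxillin, 8.62, and Myh9, a nonmuscle myosin gene, 4.05; each lay inside its gene and had no partner. Ctnnd2 contained a summit of each list, 102217 bp apart, and Afap1, an actin filament-associated gene, an siNT summit scoring 5.32.

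Of 9 genes around Myc, 4 were linked in siID4 (Asap1, Myc, Adcy8 and Trib1) and 2 in siNT (Asap1 and Gsdmc). These shares were 44.4% and 22.2%, against 9.93% and 3.47% over all genes. Pvt1, the long noncoding RNA gene beside Myc, is not protein-coding and could not be linked by this rule, but it contained 2 siID4 summits and 1 siNT summit. A pair inside Pvt1 at position 62212317 scored 6.30 in siID4 and 8.81 in siNT, 62 bp apart. Of 9 casein and EGF-family ligand genes, Csn1s2a (3.15) and Btc (1.90) were linked in siID4 only, or 22.2%. Of 17 receptor kinase and chemokine genes, Flt1 (9.68 and 1.41), Pdgfra (3.54) and Kdr (1.88) were linked in siID4 only, or 17.6%. Of the same 17, only Fgfr3 had an siNT summit (2.57), or 5.88%. Flt1 and Kdr mark endothelium and Pdgfra and Col14a1 fibroblasts, and no site at these 4 genes was shared. Kit, Flt3, Il7r, Il2rb and Csf2rb, taken as haematopoietic genes, were not linked in either list.

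Of 22 homeobox and chromatin genes, 3 were linked in siID4 and 2 in siNT, or 13.6% and 9.09% (9.93% and 3.47% over all genes). Hopx was among the first, with the site described above, and Tbx5, a T-box factor gene, among the second, with a summit 84812 bp away scoring 6.21. Of 12 neuronal genes, 4 were linked in siID4, or 33.3%, and 1, Magi2, in both lists, or 8.33% in siNT. The 6 siID4 summits of these neuronal genes lay inside Magi2, Gabrb1, Rph3a and Csmd3 and scored 1.64 to 4.64, and none was shared.

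The ratio of siID4 to siNT summits was alike on the chromosomes. It was 3.41 on chromosome 5 (2.52 to 4.68) and 3.38 on chromosome 15 (2.36 to 4.93). Over the rest of the assembled chromosomes it was 2.81 (2.49 to 3.17), and 2.26 (1.98 to 2.59) there without the dense part of chromosome 11 beyond 110 Mb. The densities were 1.27 siID4 and 0.372 siNT summits per Mb on chromosome 5, and 1.30 and 0.385 on chromosome 15. The depths behind the lists are unknown, and the differences between these ratios were not tested.

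The border of the left-out segment cuts through a crowded stretch. The last siID4 members before it lay at 14990805 (score 9.04), and the first left out at 15025159 (8.64). In siNT they lay at 14990818 (6.89) and 15004838 (6.97). The megabase before the border held 7 siID4 and 3 siNT members, and the one after it none. Across it, the last siID4 summit left out scored 6.56, and the next member, at 18335038, 3.93; in siNT these scored 4.52 and 2.93, the latter at 17786392.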

How the data were processed

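The authors deposited 1 list of summits per siRNA, and its score column is read as −log10 of a q value per peak from the layout and from its minimum, 1.31 in siID4 and 1.32 in siNT, just above −log10 of 0.05 (1.30). Per the submitters' processing notes, the authors worked in mm10 and with SAMtools. Which aligner and peak caller they used, and whether the 3 libraries per siRNA were pooled, is not given in the sources used here. Sequencing depth is unknown.

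Positions, scores and percentiles within each list, sharing within 200 bp, bins of 5 Mb from 0 to the end of the last gene or summit, and links to genes of RefSeq GRCm38.p6 (nearest protein-coding gene body within 100000 bp) were computed in Python 3.11.15 with NumPy 2.4.6, pandas 2.3.3 and SciPy 1.17.1, after checks on simulated lists. The gene table gives no strand or exon. Promoter windows of 300 bases came from RefSeq, with 2047 windows on chromosome 5 and 936 on chromosome 15. No genome sequence was used.

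Named sites are the 10 highest of each list on each chromosome, the 3 highest more than 1000 bp from the other list's summits, the gene with the most summits in the 3 fullest bins, genes with 3 or more summits and linked members of 10 gene lists; where genes tied over more than 3 genes, or bins tied, they were not all named. Some sites and genes that this rule names are not reported here. Shared low-scoring pairs and Pvt1 were named after their values were seen. The members and gene lists were chosen with earlier results of these data known. The block of chromosome 15, the 40 Mb window, the 10000 bp neighbour measure and the sharing at rates of other chromosomes were added after the data were seen.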

Additional observations from a re-analysis of the deposited data

How the results depend on the processing

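No paired analysis was possible because each siRNA has 1 list and no values per library, and for the same reason leaving out a library was not run. A value counts as moved when it leaves its 95% interval, or, for counts and variance-to-mean ratios, changes by more than 1.5 times; 129 of 186 values did not move. Other sharing distances, merging within 500 bp, bins starting at 2.5 Mb, links within 50000 bp, links to all annotated genes, percentiles without scaffolds and distal chromosome 11, and leaving out chromosome 5 from 14 to 17 Mb (added after the data were seen) moved none. In 8 of 8 alternatives chromosome 15 kept the higher shared share and 3-bin share in both lists and the higher siID4 variance-to-mean ratio. For siNT that ratio was higher in 7 of 8: with chromosome 5 from 15 to 16 Mb kept it was 4.33 on chromosome 5 and 2.62 on chromosome 15. Values below are for chromosomes 5 and 15 where paired.

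At or above the list median score, the siID4 summits numbered 53 and 56 and the siNT summits 14 and 18. Sharing was then 18.9% and 28.6% for siID4 and 71.4% and 88.9% for siNT. The 3 fullest bins held 37.7% (siID4) and 50% (siNT) on chromosome 5, the chromosome 15 siID4 variance-to-mean ratio was 2.98 against 2.46 on chromosome 5, its 3 fullest bins held 42.9%, and its block held 66.1%. The siID4 chromosomes were thus closer to each other than over all summits, where the ratios were 7.30 and 2.87 and the 3-bin shares 43.0% and 22.0%. Linked siID4 summits were 46 and 40 at 39 and 35 genes, linked siNT summits 12 and 14 at 10 and 12 genes, and 0% of chromosome 15 siNT summits lay near a gene end. At a score of at least 5, the summits numbered 35 and 47 for siID4 and 21 and 19 for siNT, and sharing was 28.6% and 36.2% for siID4 and 47.6% and 89.5% for siNT. The siID4 variance-to-mean ratios were 1.87 and 3.12, the 3 fullest bins held 40% (chromosome 5, siID4) and 63.2% (chromosome 15, siNT), and the block held 63.8% of siID4 and 42.1% of siNT summits.

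With bins of 2 Mb the 3 fullest held 14.1% and 23.7% for siID4 and 21.4% and 25% for siNT, and the chromosome 15 variance-to-mean ratios were 3.55 (siID4) and 1.51 (siNT). With bins of 10 Mb the siID4 values were 34.0% and 63.7%, with ratios of 4.46 and 11.6. Links within 10000 bp left 104 and 63 siID4 summits, and 18 siNT summits at 18 genes on chromosome 15. Near gene ends lay 6.81% of chromosome 5 siID4 summits at 500 bp; at 3000 bp 25.1% and 8.89% for siID4 and 23.2% for chromosome 5 siNT; and for protein-coding ends 5.76% and 0% for siID4 and 0% for chromosome 15 siNT. The causes of these moves were not tested, apart from the fewer summits or genes that a stricter limit leaves. Library depths are unknown, so a given score limit may select differently in each list.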
